A study of Mus musculus with 7 samples.

Results

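The 39 genes of the 4 mouse Hox clusters were examined in haematopoietic stem cells (HSCs) of old and young mice. They were all rows of a deposited table of 24015 genes whose symbol was Hoxa, Hoxb, Hoxc or Hoxd followed by a number: 11 genes of the Hoxa cluster, 10 of Hoxb, 9 of Hoxc and 9 of Hoxd. The cells came from bone marrow of C57BL/6 mice and were sorted as LSK cells (no lineage markers, with Sca-1 and c-Kit) that carried CD150 but not CD48. Their polyA RNA was sequenced in bulk. There were 3 libraries of old and 4 of young HSCs, with no other treatment or genotype in the labels, which give no ages and are silent on whether the libraries came from different animals. A p-value here thus reflects only how far these samples scatter, which may in part be technical. In bulk RNA, fewer cells that transcribe a gene and less of its RNA per cell cannot be told apart.

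Hox genes encode homeodomain transcription factors and lie in 4 clusters, in which the genes are numbered by position into paralogue groups that run from 1 to 13. Low numbers lie at the 3′ end of a cluster and are switched on early and towards the head of the embryo, high numbers at the 5′ end, later and towards the tail. In blood, genes of the Hoxa and Hoxb clusters are known from stem and progenitor cells. Hoxa9 is needed for normal HSC function and drives leukaemia together with its cofactor Meis1, Hoxb4 expands HSCs when it is forced to high levels, and Hoxb5 has been used to mark long-term HSCs. Trithorax proteins keep Hox genes active and Polycomb proteins keep them silent.

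Start sites of the genes at the extremes of the measured pattern are shown first: Hoxa9, the Hox gene with the highest level in every library, Hoxa10, Hoxb8, which had a count in every old library and in 1 young library, and Hoxa13 and Hoxd13, which had none. The RefSeq table of start sites (build GRCm38.p6) held 22 of the 39 genes, with 24 starts, and the 250 bases before each start are given, 5′ to 3′ on the strand of the gene. They lie at chr6:52227371-52227620 (minus strand) for Hoxa9, chr6:52240855-52241104 and chr6:52234940-52235189 (minus strand) for the outer and the inner start of Hoxa10, chr11:96281655-96281904 (plus strand) for Hoxb8, chr6:52260881-52261130 (minus strand) for Hoxa13 and chr2:74667975-74668224 (plus strand) for Hoxd13, and none overlaps an annotated exon. Capitals mark matches on either strand to the CCAAT box, to the letters TATAAA of the TATA box, to TGACAG (known from MEIS proteins), to TGATNNAT (known from HOX and PBX pairs) and to TTTATG (known from caudal factors), some of which overlap.
Hoxa9: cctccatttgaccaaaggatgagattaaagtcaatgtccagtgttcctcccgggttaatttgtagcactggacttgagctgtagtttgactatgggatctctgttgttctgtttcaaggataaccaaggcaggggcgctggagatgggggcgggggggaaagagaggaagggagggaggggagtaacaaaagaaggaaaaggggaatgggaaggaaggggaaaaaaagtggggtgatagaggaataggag
Hoxa10 outer start: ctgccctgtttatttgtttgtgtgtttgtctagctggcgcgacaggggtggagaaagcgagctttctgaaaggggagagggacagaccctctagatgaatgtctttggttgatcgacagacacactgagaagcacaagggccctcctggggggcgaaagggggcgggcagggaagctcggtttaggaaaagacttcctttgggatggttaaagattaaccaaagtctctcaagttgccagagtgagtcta
Hoxa10 inner start: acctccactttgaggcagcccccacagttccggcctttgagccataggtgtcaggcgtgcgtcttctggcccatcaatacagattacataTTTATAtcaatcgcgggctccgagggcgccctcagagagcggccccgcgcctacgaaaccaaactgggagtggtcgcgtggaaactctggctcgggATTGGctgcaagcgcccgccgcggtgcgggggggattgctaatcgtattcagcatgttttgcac
Hoxb8: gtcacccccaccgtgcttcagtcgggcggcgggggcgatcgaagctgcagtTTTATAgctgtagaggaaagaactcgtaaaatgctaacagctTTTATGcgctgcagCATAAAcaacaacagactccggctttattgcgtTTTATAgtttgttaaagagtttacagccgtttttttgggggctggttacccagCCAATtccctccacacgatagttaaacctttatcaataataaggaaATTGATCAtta
Hoxa13: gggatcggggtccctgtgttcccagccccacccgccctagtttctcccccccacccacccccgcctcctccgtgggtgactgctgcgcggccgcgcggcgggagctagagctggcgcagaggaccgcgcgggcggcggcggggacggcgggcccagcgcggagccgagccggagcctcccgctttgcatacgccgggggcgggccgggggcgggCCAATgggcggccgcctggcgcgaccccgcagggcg
Hoxd13: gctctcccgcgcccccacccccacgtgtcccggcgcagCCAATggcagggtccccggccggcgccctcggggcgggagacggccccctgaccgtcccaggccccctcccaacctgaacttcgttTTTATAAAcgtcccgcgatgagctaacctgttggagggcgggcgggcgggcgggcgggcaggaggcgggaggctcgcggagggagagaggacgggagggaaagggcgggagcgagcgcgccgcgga
The printed windows of Hoxa9 and of the outer start of Hoxa10 held none of these letters, and that of Hoxb8 held matches to all but the MEIS letters. The CCAAT box was found in 14 of the 24 Hox windows (58.3%) against 33.9% of all 32851 windows of the same length, in 6 of the 12 windows of genes with a count and in 8 of the 12 of genes without. The other shares were 16.7% against 12.4% for TATAAA, 8.33% against 15.9% for TGACAG, 16.7% against 7.68% for TGATNNAT and 20.8% against 10.8% for TTTATG. Unlike the printed ones, some of the 24 Hox windows overlap annotated exons, and those of Hoxa3 and Hoxc4 do so over all 250 bases. The Hox windows had a median GC content of 58.6% against 52.4% in all windows, and a median ratio of observed to expected CpG of 0.721 against 0.374. These are descriptions of letters in the reference, and which start was used in these cells was not measured.

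The clusters also hold microRNA genes, and 1 of them had counts. Their 5′ arms are shown with the seed (bases 2 to 8) in capitals, because the seed sets which messenger RNAs a microRNA can pair with.
miR-10a-5p (Hoxb cluster): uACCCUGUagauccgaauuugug
miR-10b-5p (Hoxd cluster): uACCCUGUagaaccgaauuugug
miR-196a-5p (Hoxb and Hoxc clusters): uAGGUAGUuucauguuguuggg
miR-196b-5p (Hoxa cluster): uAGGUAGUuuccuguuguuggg
miR-10a and miR-10b share a seed, and so do miR-196a and miR-196b. Libraries of polyadenylated RNA do not hold the mature forms. The Mir196b row had 68, 80 and 21 counts in old 1, 2 and 3 and 50, 5, 27 and 66 in young 1, 2, 3 and 4, and in a later annotation it lies within an exon of Hoxa9. The rows of Mir10a, Mir10b, Mir196a-1, Mir196a-2 and Mir615, and that of the long noncoding RNA Hotair of the Hoxc cluster, had no count in any library.

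The depth was 27369677 to 32401925 counts per library in old and 22203806 to 27146186 in young HSCs. Levels are given on the usual CPM scale, in which each count is divided by its library's total, after scaling by TMM, a correction for differences in library composition. The worth of 3 counts, 0.0929 to 0.137 CPM, is the upper limit that a zero leaves, for counting error only. Of 10 markers of HSCs, 9 had a count in every library and Fgd5 in all but young 2, and their summed level was 2510 to 2786 CPM in the old and 1303 to 2286 CPM in the young libraries. Of 10 markers of marrow stroma, which can carry Hox genes of its own, 4 (Lepr, Col3a1, Kitl and Sp7) had no count, Cxcl12 was at 0 in 6 of 7 libraries, and the sum reached at most 8.69 CPM (old 1) and 5.92 CPM (young 4), nearly all of it Col1a2.

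Of the 39 Hox genes, 24 had a count in at least 1 library and 15 had none, a share of rows without a count (15 of 39) close to that of the whole table (38.7%). A gene is called expressed in a group if it reached 1 CPM in every library of it. By that rule 6 genes were expressed in all 7 libraries: Hoxa5, Hoxa7, Hoxa9 and Hoxa10 in the Hoxa cluster and Hoxb2 and Hoxb5 in Hoxb. Another 5 were expressed in every old library but not in every young one, and all lay in the Hoxb cluster: Hoxb3, Hoxb4, Hoxb7, Hoxb8 and Hoxb9. No gene was expressed in all young libraries and not in all old ones. This gave 11 expressed genes in old (4 Hoxa and 7 Hoxb) and 6 in young HSCs (4 Hoxa and 2 Hoxb). The rule asks for 4 libraries in young and 3 in old HSCs, and with any 1 young library left out, 6 to 8 genes were expressed in young HSCs. At a minimum of 5 CPM instead of 1 CPM, 6 genes were expressed in old and 5 in young HSCs.

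**Figure D1:**
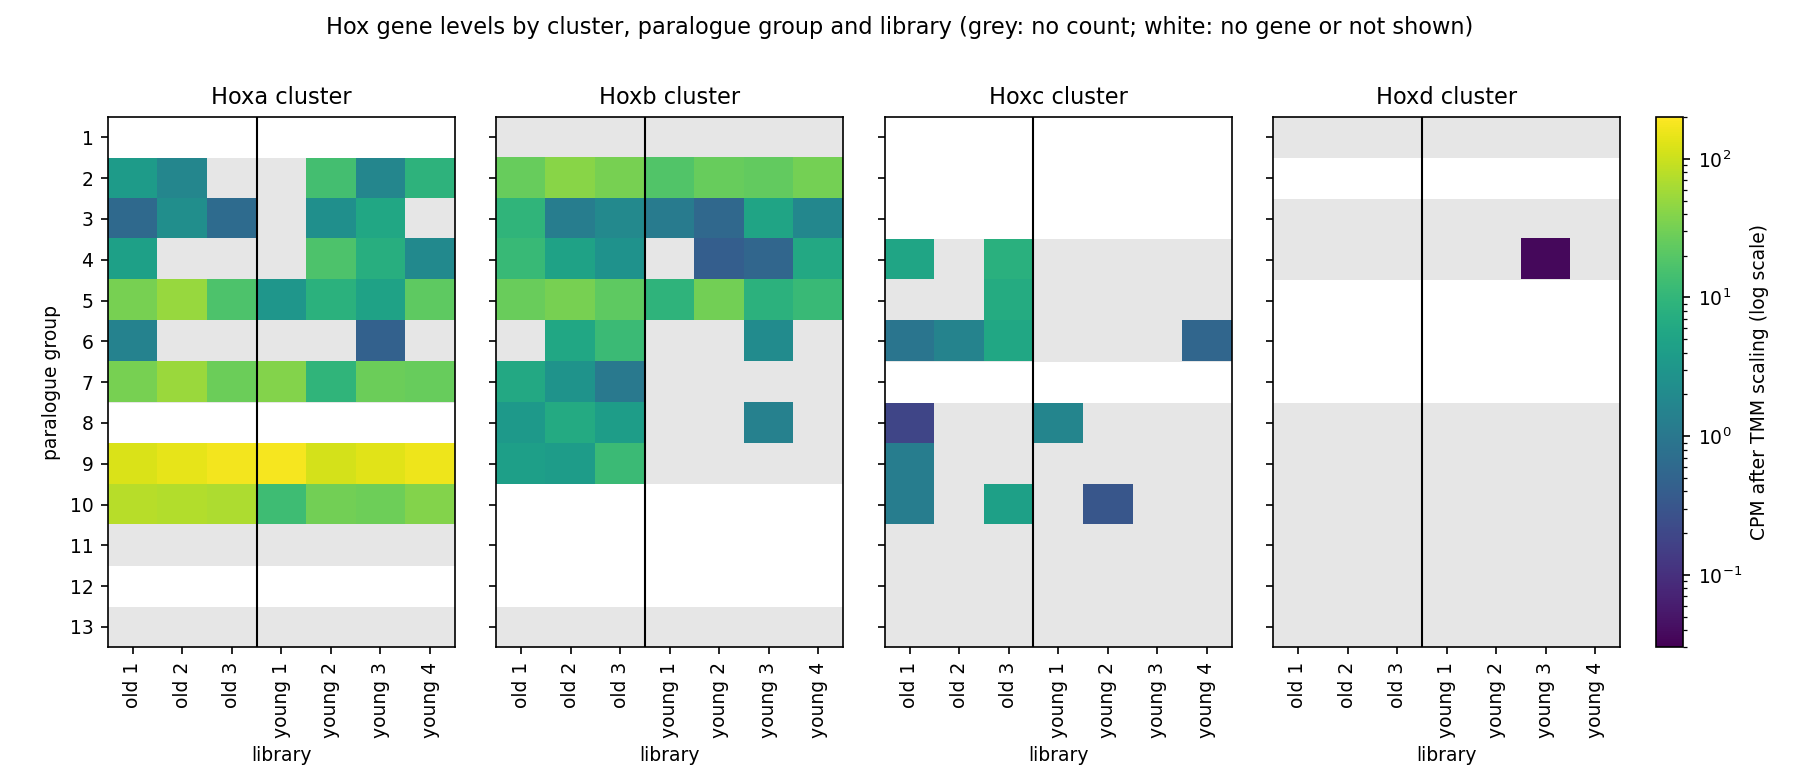
CPM of each Hox gene by cluster (panels), paralogue group (rows) and library (columns, the line parts old from young). Colour is the level on a log scale, grey is a gene with no count and white a number with no gene in that cluster or one not shown. Hoxa9 is the brightest row in every library, and the Hoxd panel is grey except for 1 count of Hoxd4. Hoxb6 to Hoxb9, grouped after their values had been seen, are coloured in 11 of 12 fields of old and 2 of 16 fields of young libraries.

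Positions without counts were the ends of the clusters and nearly the whole Hoxd cluster. Groups 11 to 13 had no count in any cluster: Hoxa11 and Hoxa13, Hoxb13, Hoxc11, Hoxc12 and Hoxc13, and Hoxd11, Hoxd12 and Hoxd13, genes known from limbs and the hind part of the body. At the other end Hoxb1 and Hoxd1, which act in the hindbrain, had no count either, nor did Hoxd3, Hoxd8, Hoxd9 and Hoxd10. The whole Hoxd cluster gave 1 count, of Hoxd4 in young 3.

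In the Hoxa cluster, Hoxa5 to Hoxa10 carried most of the signal, 163.6 to 319 CPM of the cluster's sum in the different libraries. Hoxa9, the HSC and leukaemia factor, was at 120.5, 142 and 171 CPM in old 1, 2 and 3 and at 179.5, 115, 134 and 159 CPM in young 1, 2, 3 and 4. The groups overlapped throughout, with means of 145 ± 25.5 CPM (SD, n = 3) and 147 ± 28.3 CPM (SD, n = 4) and a log2 fold change of -0.02 ± 0.25 (SE). The direction of that difference turned with the library left out, from -0.16 to 0.10, so neither direction held at this spread.

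Hoxa10, a paralogue next to Hoxa9 that also promotes growth of blood progenitors, was at 76.7, 71.7 and 68.7 CPM in the old and at 13.1, 30.9, 28.5 and 39.3 CPM in the young libraries. Every old library lay above every young one, and young 1 was the lowest. The means were 72.4 ± 4.03 and 27.9 ± 10.96 CPM, a log2 fold change of 1.37 ± 0.48 (SE; unadjusted p = 0.0176, adjusted p = 0.354, edgeR). It missed the threshold of an adjusted p under 0.05 also with DESeq2 (adjusted p = 0.0710) and limma-voom (adjusted p = 0.215). Of the summed Hox level, Hoxa10 made up 18.2% ± 2.27 in old and 10.3% ± 3.61 in young HSCs, and Hoxa9 36.2% ± 5.73 in old and 54.3% ± 9.56 in young HSCs. The old and the young libraries did not overlap in either share.

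Hoxa5, which influences the choice between erythroid and myeloid fates, was at 32.5, 52.03 and 17.1 CPM in the old and 3.02, 8.26, 4.73 and 22.5 CPM in the young libraries. Young 4 lay within the range of the old libraries and the other young libraries below it (log2 fold change 1.81 ± 0.93, adjusted p = 0.635). Hoxa7, known from myeloid leukaemia with Hoxa9, was at 32.6, 52.5 and 28.05 CPM in the old and 38.9, 9.54, 27.8 and 25.4 CPM in the young libraries, with overlapping groups (adjusted p = 0.935). Hoxa6, between them, had counts in old 1 (1.51 CPM) and young 3 (0.470 CPM) alone.

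The 3′ genes Hoxa2 to Hoxa4 were patchy in both groups. Hoxa2 was at 3.70, 1.70 and 0 CPM in the old and 0, 14.6, 1.73 and 8.88 CPM in the young libraries, Hoxa3 at 0.604, 2.35 and 0.653 CPM and 0, 2.42, 5.74 and 0 CPM, and Hoxa4 at 4.46, 0 and 0 CPM and 0, 17.03, 7.59 and 1.95 CPM. Young 1 held no count of any of the 3. They had negative log2 fold changes of -1.81 ± 2.35, -0.76 ± 2.28 and -2.16 ± 2.71 (adjusted p of 0.948, 0.985 and 0.945), each with an SE larger than the change. Without young 2 the values of Hoxa2 and Hoxa4 were -0.97 and -1.10, and without old 1 that of Hoxa2 was -2.88, while Hoxa4 had no count left in old HSCs.

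In the Hoxb cluster the 3′ genes were shared by the groups and the genes from Hoxb6 to Hoxb9 were found mostly in old HSCs. Hoxb2, the most even gene of the cluster, was at 25.7, 41.9 and 32.9 CPM in the old and 18.6, 25.7, 23.8 and 31.7 CPM in the young libraries (log2 fold change 0.43 ± 0.58, adjusted p = 0.951). Hoxb5, the marker of long-term HSCs, was at 26.97, 32.4 and 22.8 CPM in the old and 9.33, 30.3, 8.45 and 11.8 CPM in the young libraries. Young 2 lay among the old libraries and the other young libraries lay below all of them (log2 fold change 0.87 ± 0.79, adjusted p = 0.895, and 1.48 in the fit without young 2).

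Hoxb4, the expansion factor, was at 11.5, 4.86 and 2.65 CPM in the old and 0, 0.411, 0.542 and 6.13 CPM in the young libraries, so that young 4 again lay within the old range and the other young libraries below it. Its log2 fold change was 1.83 ± 1.95 (adjusted p = 0.923), and it ranged from 1.08 without old 1 to 4.29 without young 4, and was 4.46 with the replicate number as a block. Hoxb3 was at 9.44, 1.27 and 1.88 CPM in the old and 1.18, 0.594, 5.201 and 1.78 CPM in the young libraries; its log2 fold change of 0.94 turned to -0.48 without old 1. Hoxb2 to Hoxb5 together summed to 60.3 to 80.5 CPM in the old and 29.1 to 57.03 CPM in young libraries, and the ranges did not overlap.

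Hoxb9 had 115, 128 and 319 counts in old 1, 2 and 3 and none in any young library. That is 4.34, 3.96 and 12.3 CPM, a mean of 6.85 ± 4.68 CPM (SD, n = 3) and at least 57.0-fold more than 3 counts per young library, or at least 34.5-fold without old 3 (unadjusted p = 0.00349, adjusted p = 0.191, edgeR). DESeq2 called it higher in old HSCs (adjusted p = 9.01e-04), the only Hox gene it called, and limma-voom did not (adjusted p = 0.0826). Hoxb7, a neighbour known from proliferation of several cell types, was at 6.04, 2.72 and 1.04 CPM in old HSCs and had no count in young ones, at least 27.2-fold more, or at least 15.6-fold without old 1 (unadjusted p = 0.00578, adjusted p = 0.2204, and 0.0551 with DESeq2).

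Hoxb8, which blocks myeloid differentiation when overexpressed, was at 3.51, 6.47 and 3.996 CPM in old HSCs, and in young HSCs at 1.44 CPM in young 3 and 0 elsewhere. All old libraries lay above young 3 (adjusted p = 0.780). Hoxb6 was at 0, 5.73 and 12.2 CPM in old HSCs and, again in young 3 alone, at 2.10 CPM in young ones (adjusted p = 0.869). Counting each gene in each library, Hoxb6 to Hoxb9 had a count in 11 of 12 cases in old and 2 of 16 in young HSCs, both of the latter in young 3. These genes were grouped after their values had been seen, and the replicates are the libraries, not the cases. Summed, Hoxb6 to Hoxb9 reached 13.9, 18.9 and 29.5 CPM in old 1, 2 and 3. Young 3 was at 3.54 CPM, and young 1, 2 and 4 were at 0.

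**Figure D2:**
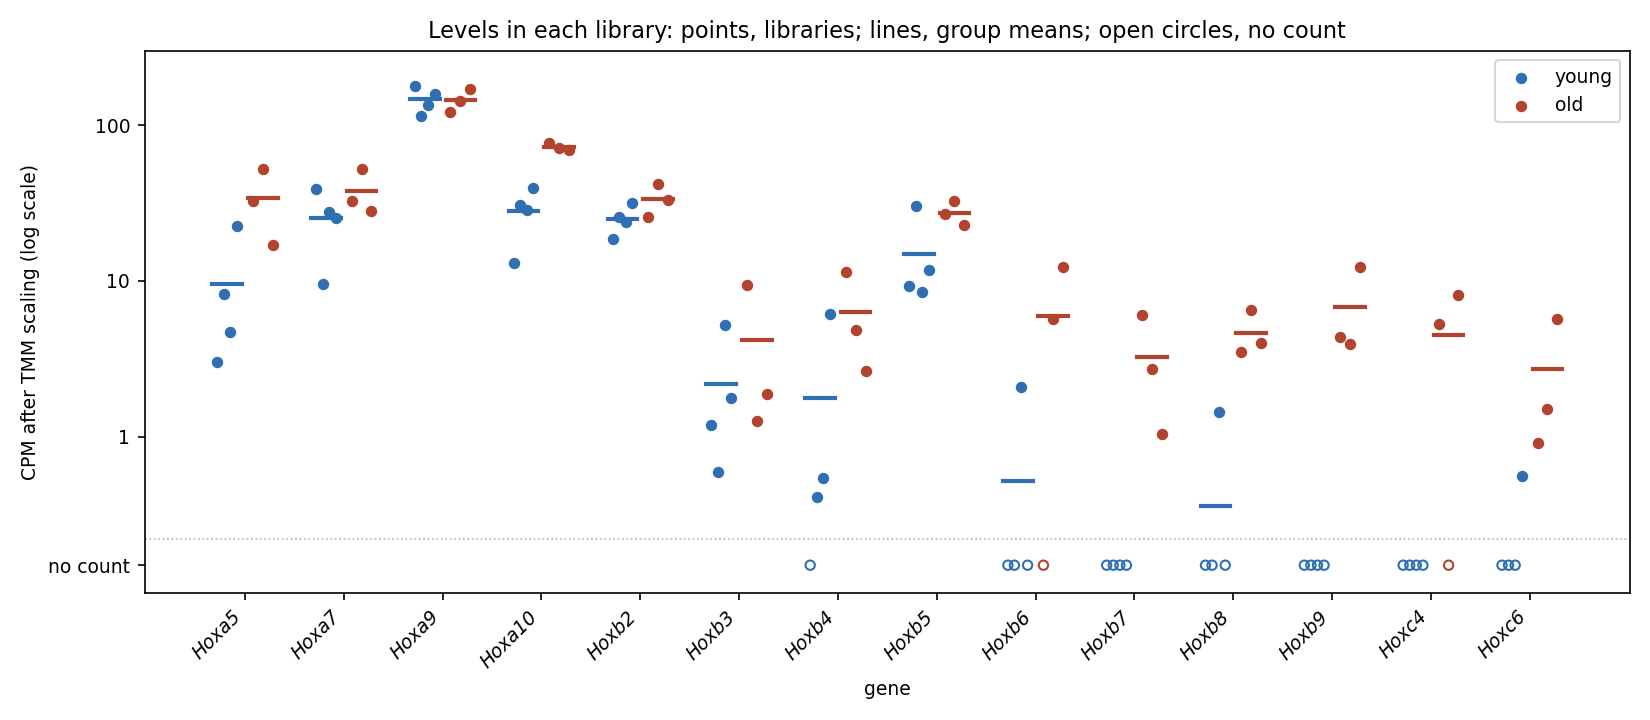
CPM of 14 Hox genes on a log axis, with 1 point per library (blue young, red old), lines at the group means and open circles at the bottom for libraries with no count. Old and young points overlap for Hoxa9 and lie apart for Hoxa10, and for Hoxb7 and Hoxb9 every young library is at no count.

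The Hoxc cluster had counts from Hoxc4 to Hoxc10, mostly in old HSCs and unevenly among them. Hoxc4, expressed in several blood lineages, was at 5.33, 0 and 8.11 CPM in the old and had no count in young HSCs. Hoxc6 was at 0.906, 1.52 and 5.69 CPM in the old and at 0.557 CPM in young 4 alone among the young, so that all old libraries lay above all young ones (adjusted p = 0.677). Hoxc10 was at 1.25, 0 and 4.46 CPM in the old and at 0.320 CPM in young 2. Hoxc5 had 176 counts in old 3 (6.76 CPM) and none elsewhere, and Hoxc9 33 counts in old 1 (1.25 CPM) and none elsewhere. Hoxc8 alone was highest in a young library, with 38 counts in young 1 (1.66 CPM) against 5 in old 1. The cluster summed to 8.91, 1.52 and 25.0 CPM in the old and 1.66, 0.320, 0 and 0.557 CPM in the young libraries, so the groups overlapped at old 2 and young 1. The old mean of 11.8 ± 12.01 CPM was 5.21 CPM without old 3, and the young mean of 0.635 ± 0.723 CPM was 0.292 CPM without young 1. In the later annotation Hoxc5 and Hoxc10 share exon sequence (5.37% and 8.70% of their exon length), so a read could have been given to either or lost.

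Compared per kilobase of exon, Hoxa9 was first with a median over the 7 libraries of 25.5 CPM per kilobase, above the second, Hoxa10 (12.03), in 6 of 7 libraries. Hoxa10, Hoxa7 (9.75), Hoxa5 (9.09), Hoxb5 (8.19) and Hoxb2 (7.37) formed a group whose neighbours changed places between libraries: each was above the next in 5, 3, 4 and 2 of 7 libraries. A wide step followed, since Hoxb2 was above the next gene, Hoxa4 (1.22), in 6 of 7. Hoxb4, Hoxa2, Hoxb8, Hoxb3, Hoxc6 and Hoxa3 came after with medians of 1.03 down to 0.109 CPM per kilobase. Exon lengths are those of a later annotation, in which Hoxa9 has 5580 bases of exon and 813 of coding sequence. Per kilobase of coding sequence Hoxa9 stayed first (175, above the next gene in 7 of 7 libraries), and over all 7 libraries Hoxa7 took the second place and Hoxa10 the third. The order below Hoxa9 differed between the groups. By mean CPM per kilobase of exon among these 6 genes, old HSCs had Hoxa9 (25.9 ± 4.57), Hoxa10 (22.1 ± 1.23), Hoxa5 (18.04 ± 9.34), Hoxa7 (13.1 ± 4.52), Hoxb5 (9.84 ± 1.73) and Hoxb2 (9.61 ± 2.33; SD, n = 3). In young HSCs it ran from Hoxa9 (26.3 ± 5.07) to Hoxa7 (8.84 ± 4.204), Hoxa10 (8.54 ± 3.35), Hoxb2 (7.15 ± 1.54), Hoxb5 (5.37 ± 3.71) and Hoxa5 (5.13 ± 4.72; SD, n = 4), where neighbours in the order after Hoxa9 differed by less than the larger of their SDs. Per kilobase of coding sequence, Hoxa10 was second in old HSCs (57.99 against 54.9 for Hoxa7) and below Hoxa7 in young HSCs (22.4 against 37.0).

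By cluster, the summed level of the Hoxa genes was 272.6 to 330 CPM in the old and 198 to 257 CPM in young libraries, and that of the Hoxb genes 87.5 to 99.4 CPM and 29.1 to 57.03 CPM. Neither pair of ranges overlapped. The means were 296 ± 30.3 and 225 ± 26.2 CPM for Hoxa and 92.2 ± 6.31 and 44.8 ± 12.2 CPM for Hoxb. Hoxb genes made up 23.1% ± 0.647 of the summed Hox level in old and 16.6% ± 4.65 in young HSCs. These sums were chosen with the members' values known and carry no test.

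Over the comparison of old with young HSCs, no Hox gene passed the threshold. A filter on low counts left 16 of the 39 genes to be tested, 7 Hoxa, 8 Hoxb and Hoxc6, and edgeR called 0 of them at an adjusted p under 0.05, against 0.252% of all 11506 tested genes (29 genes: 0.235% higher and 0.0174% lower in old). At an unadjusted p under 0.05 there were 3 of 16 (Hoxa10, Hoxb7 and Hoxb9, all higher in old), against 9.12% of all tested genes in either direction and 4.62% higher in old. DESeq2 called 1, Hoxb9, against 5.06% of the genes it gave an adjusted p (2.45% higher in old), and limma-voom 0, against 0.435%. In the fit, 12 of 16 had a positive log2 fold change against 48.5% of all tested genes: all 8 Hoxb genes, Hoxc6 and 3 of 7 Hoxa genes. The median log2 fold change of the 16 was 1.16, and that of all tested genes -0.03.

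Groups that did not overlap, with old higher, were found in 5 of 16 (Hoxa10, Hoxb7, Hoxb8, Hoxb9 and Hoxc6), against 7.55% of all tested genes, and with old lower in 0, against 5.18%. Except for Hoxa10, these genes reached the level the filter asks for in all 3 old libraries and in at most 1 young library, so that they were tested only because they were high in old HSCs, and the counts and the median over the 16 do not stand for all 39. Over the 24 members with a count, 7 had counts in at least 2 old and at most 1 young library (Hoxb6 to Hoxb9, Hoxc4, Hoxc6 and Hoxc10), against 3.84% of all 14732 genes with a count, and Hoxa4 alone had them in at least 3 young and at most 1 old library, against 3.02%. That rule was set after the values had been seen. A count in every old and no young library was found in Hoxb7 and Hoxb9, against 0.322% of tested genes, and the reverse in no Hox gene, against 0.209%. Of the 24, 6 had no count in any young library, among them Hoxb7, Hoxb9 and Hoxc4, against 6.42% of genes with a count, and Hoxd4 alone had none in any old one, against 9.27%.

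**Figure D3:**
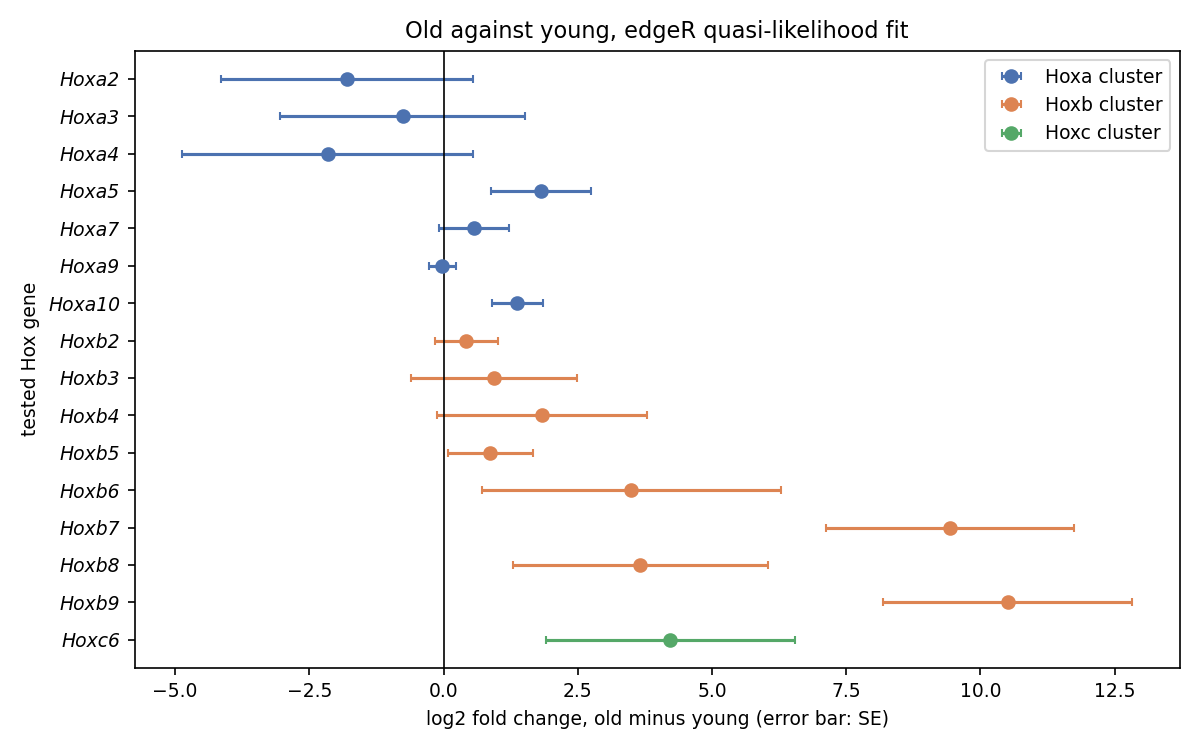
Log2 fold change (old minus young) of the 16 tested Hox genes with SE, coloured by cluster. All 8 Hoxb genes lie right of 0, Hoxa9 lies next to 0, and Hoxa2 to Hoxa4 lie left of it with error bars that cross it; the values of Hoxb7 and Hoxb9, with no young count, depend on the prior count of the fit and are no measure of size.

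Zeros in single libraries were common among the weaker genes. Of the 16 tested Hox genes, 9 lacked a count in 1 or more libraries, against 27% of all tested genes, and all 9 were among the 10 with a mean under 10 CPM, against 74.8% of tested genes below that level. The number of Hox genes with a count was 20, 16 and 17 in old 1, 2 and 3 and 8, 12, 15 and 11 in young 1, 2, 3 and 4. The deeper libraries were the old ones. Over all genes, however, young 3 and young 4 had a count in more genes (12042 and 12073) than any old library (11401 to 11795), while young 1 and young 2 had it in fewer (10576 and 10815). With every library thinned to the smallest total, 11 Hox genes were expressed in old and 6 in young HSCs, as without thinning.

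**Figure D4:**
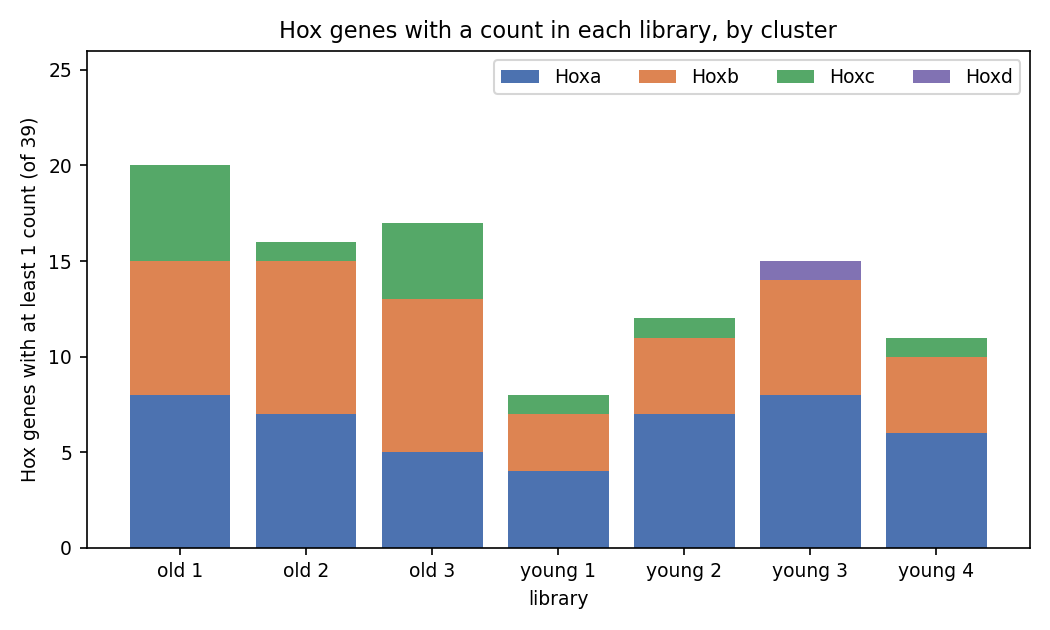
Number of Hox genes with at least 1 count in each library, stacked by cluster. The old libraries reach 16 to 20 and the young 8 to 15, and the difference lies in the Hoxb and Hoxc parts of the bars.

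Markers of other cells differed between the groups too. The 3 markers of multipotent progenitors summed to 85.2 to 135 CPM in the old and 261 to 406 CPM in the young libraries. Cd48, whose protein the sort excluded, and Flt3 were at 0 in all old libraries, and Flt3 also in young 1. Cd34 thus made up the whole of the old sums, and 234 to 398 CPM of the young ones. The 10 HSC markers summed higher in every old than in every young library. Erythroid markers summed to 11.1 to 44.2 CPM in the old and 71.6 to 109.9 CPM in the young libraries, with both globin genes at 0. Sums of megakaryocyte (47.8 to 254 and 158 to 452 CPM), granulocyte and monocyte (878 to 1427 and 717 to 1284 CPM), endothelial (97.02 to 201 and 90.1 to 148 CPM), B cell (73.4 to 192 and 122 to 185 CPM) and T and NK cell markers (21.3 to 105 and 79.5 to 382 CPM) overlapped between old and young HSCs. Several of these sums were mostly single genes. Lyz2, of granulocytes and monocytes, was at 878 to 1414 CPM in the old and 692 to 1267 CPM in the young libraries. Cd79b made up most of the B cell sums and Nkg7 most of the T and NK cell sums. Tek and Emcn made up most of the endothelial sums. Csf1r, Ms4a1, Pax5, Cd3e and Cd8a had no count. The part of the marker differences in the Hoxb and Hoxc levels was not tested.

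Of the partners of Hox proteins, none passed the threshold (0 of 10 tested cofactors, against 0.252% of all tested genes). Of the 10, 4 had a positive log2 fold change, against 48.5% of all tested genes, and the median was -0.45. Meis1, the main cofactor of Hoxa9, was at 422 ± 90.1 CPM in the old and 504 ± 88.7 CPM in the young libraries (log2 fold change -0.26 ± 0.23, adjusted p = 0.895), and no young library lacked it. The related cofactors Meis3 and Pbx3 did not overlap between groups, with old higher (2 of 10, against 7.55% of all tested genes). Meis3 was at 37.6, 13.6 and 48.8 CPM in the old and 0, 0, 3.65 and 8.95 CPM in the young libraries (adjusted p = 0.687). Pbx3 was at 112.6, 65.5 and 78.6 CPM in the old and 0, 38.9, 26.2 and 13.3 CPM in the young libraries (adjusted p = 0.743).

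Of 19 tested activators of Hox genes none passed either (4 with a positive log2 fold change, against 48.5% of all tested genes, median -0.30, 1 at an unadjusted p under 0.05, against 9.12%). Kmt2a, the Trithorax methyltransferase that maintains Hox genes, averaged 66.0 ± 6.17 CPM in the old and 86.8 ± 46.9 CPM in the young libraries (adjusted p = 0.937). Mllt3, a chromatin reader of the elongation complex that acts on Hoxa genes, was at 427, 359 and 470 CPM in the old and 119, 75.8, 154 and 232 CPM in the young libraries. All old libraries lay above all young ones (log2 fold change 1.53 ± 0.35, adjusted p = 0.154, and 0.00288 with DESeq2). Among the 19 activators this held for 1, against 7.55% of all tested genes, and the reverse for 0, against 5.18%. The methyltransferase Nsd1 and the chromatin tether Psip1 had log2 fold changes of -0.54 ± 0.32 and -0.30 ± 0.21 (adjusted p of 0.737 and 0.817). The caudal genes Cdx1, Cdx2 and Cdx4, activators in the embryo, had no count.

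All 24 Polycomb genes and partners were tested and none passed with edgeR. Of these, 7 had a positive log2 fold change (48.5% of all tested genes), with a median of -0.34. At an unadjusted p under 0.05 there were 3, against 9.12% of all tested genes. Those 3 had lower means in old HSCs. Ezh2, the catalytic subunit of Polycomb complex PRC2, was at 23.8, 80.8 and 70.2 CPM in the old and 112, 169, 114 and 83.0 CPM in the young libraries, and its partner Suz12 at 30.9, 13.5 and 23.4 CPM and 46.6, 38.4, 58.6 and 62.2 CPM. In both the groups did not overlap (adjusted p of 0.533 and 0.546). Among the 24, groups did not overlap with old lower in 3, Ezh2, Suz12 and Phc1 (5.18% of all tested genes). Phc1 averaged 3.97 ± 3.47 CPM in the old and 22.6 ± 9.71 CPM in the young libraries (adjusted p = 0.772). With old higher they did not overlap in 1, Bmi1 (7.55% of all tested genes). Bmi1 averaged 109.5 ± 13.7 CPM in the old and 73.99 ± 17.9 CPM in the young libraries (adjusted p = 0.656). Cbx2, which reads the PRC2 mark, had no count in old 1, 2 and 3 or in young 1 and was at 7.63, 2.02 and 6.999 CPM in the remaining young ones (adjusted p = 0.351, and 0.0418 with DESeq2). Ezh1, which can stand in for Ezh2, averaged 75.2 ± 27.1 CPM in the old and 31.5 ± 19.3 CPM in the young libraries (adjusted p = 0.703).

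Genes beside the clusters were compared in the same way. In RefSeq (GRCm38.p6) Skap1, an adaptor of T cell receptor signalling, is the first protein-coding gene after Hoxb1. It was at 14.99, 20.5 and 23.8 CPM in old HSCs and at 0, 0, 0 and 1.98 CPM in young ones, without overlap (unadjusted p = 0.0474, adjusted p = 0.533). Snx11, the gene after it, which encodes a sorting nexin, differed the other way, with 0.151, 13.9 and 2.11 CPM in the old and 29.7, 15.2, 27.9 and 37.8 CPM in the young libraries (adjusted p = 0.687). On the other side of the cluster, beyond Hoxb13, Ttll6 had no count. Beside the Hoxa cluster, Skap2 was even (344 ± 78.9 and 308 ± 62.03 CPM, adjusted p = 0.969), while Snx10, the gene after it, averaged 265 ± 37.8 CPM in the old and 182 ± 22.6 CPM in the young libraries without overlap (adjusted p = 0.439). Beside the Hoxc cluster, the heterochromatin protein gene Cbx5 was at 105.5, 205 and 168 CPM in the old and 289.7, 339, 272 and 282 CPM in the young libraries, all old libraries below all young ones (adjusted p = 0.249, and 0.0269 with DESeq2). Of 17 tested genes beside or inside the clusters 0 passed with edgeR, and 3 had an unadjusted p under 0.05 (9.12% of all tested genes). A positive log2 fold change was found in 10 (48.5% of all tested genes), and the median was 0.16. Groups did not overlap with old higher in 2, Skap1 and Snx10 (7.55% of all tested genes). With old lower they did not overlap in 2, Snx11 and Cbx5 (5.18%).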

How the data were processed

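The data were RNA-seq libraries of HSCs, 3 old and 4 young. Per the labels' protocols, cDNA was made with the Smart-seq+ protocol and libraries with Nextera XT, a kit without strand information. Trimmomatic, FastQC, STAR and featureCounts and the build mm9 are named, per the submitters' processing notes, without versions or settings. The authors deposited raw read counts per gene symbol, and no duplicate removal is stated, so counts include amplification copies and intervals cover counting error only.

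Software was edgeR 4.0.16 for the main test, DESeq2 1.42.0 and limma 3.58.1 (voom) for comparison, under R 4.3.3. Genes were filtered with filterByExpr (minimum count 10, minimum total 15), scaled by TMM and tested with the 2-sided quasi-likelihood F test of edgeR, comparing old with young without covariates; p-values were adjusted by Benjamini-Hochberg over 11506 genes. Each SE was derived from the log2 fold change and its F statistic. Folds against a group without counts use 3 counts per library (0.120 CPM in young). The procedure was tested on simulated data. No 2 libraries agreed within sampling noise. Exon lengths came from GENCODE M21 (GRCm38, not mm9; 22709 of 24015 symbols matched) and sequences from RefSeq (GRCm38.p6).

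The members, the lists and the tests were chosen with earlier results of these data known. Some items are not reported here. Counts cover all Hox genes; of each list the up to 3 tested genes with the smallest p are named. Meis1, Kmt2a, Ezh1, Bmi1, Phc1, Snx11 and Skap2 and the genes without a count were named beyond that rule, some after their values had been seen. Alternatives were other tools, scalings, filters and thresholds, dropping each library in turn, and a fit with replicate number as a block.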

Additional observations from a re-analysis of the deposited data

Results flagged for a closer look

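Among the young libraries, 1 library lay far from the other 3 (by Dixon's gap-to-range ratio at the 95% level) in 10 of 22 sets of values. Chance gives about 1 in 20 for values without ties, a rate that does not hold where the other 3 libraries are at 0, since the ratio is then 1 even for a single count. In 8 of the 10 the other young libraries had no count: Hoxa6 in young 3 (0.470 CPM), Hoxb6 in young 3 (2.10 CPM), Hoxb8 in young 3 (1.44 CPM), Hoxc6 in young 4 (0.557 CPM), Hoxc8 in young 1 (1.66 CPM), Hoxc10 in young 2 (0.320 CPM), Hoxd4 in young 3 (0.0361 CPM) and, from that same count, the sum of the Hoxd cluster (0.0361 CPM). Hoxb4 was at 6.13 CPM in young 4 against at most 0.542 CPM in the other young libraries, and Hoxb5 at 30.3 CPM in young 2 against 8.45 to 11.8 CPM.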

How the results depend on the processing

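No alternative run brought a Hox gene past the threshold except DESeq2, which called 1 Hox gene (Hoxb9). It also called 4 members of the lists (Mllt3, Zeb1, Cbx5 and Cbx2), against 5.06% of all genes it gave an adjusted p. The tested members were 10 cofactors, 19 activators, 24 Polycomb genes, 17 genes beside or inside the clusters and 10 other homeobox genes. The count over all genes was 591 with DESeq2, 50 with limma-voom, 16 with library size alone, 49 at an adjusted p under 0.1 and 2 to 18 without 1 library. Same-numbered old and young libraries did not deviate together (correlations of 0.03, -0.07 and -0.01 across genes), and nothing in the labels pairs them; with the replicate number as a block, edgeR called 0 genes. Of 253 values of single Hox genes under the alternatives, 245 kept their direction. The 8 others were the log2 fold changes of Hoxa3, at 1.91 with limma-voom, 0.27 with the replicate block and -1.73 to 0.58 without 1 library; Hoxa9, at 0.033 with the replicate block and -0.16 to 0.10 without 1 library (above 0 without old 1, young 1 or young 4); and Hoxb3, at -0.48 (without old 1) to 1.82 without 1 library. The 11 genes expressed in old HSCs were 6 at a minimum of 5 CPM and 6 at 10 CPM, and 12 to 13 without 1 old library. The 6 in young HSCs were 5 at a minimum of 5 CPM and 3 at 10 CPM. At 5 CPM the numbers in old and young HSCs thus lay close together. Scaling by library size alone moved the median log2 fold change of all genes to -0.12. Genes under about 10 CPM were often missing from single libraries, which limits what can be said of Hoxa2 to Hoxa4, Hoxb4, Hoxb6 to Hoxb9 and the Hoxc genes.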

Other observations

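Homeobox genes outside the clusters were set beside the Hox genes. Of 20 on the list, 10 were tested and 0 passed with edgeR (2 at an unadjusted p under 0.05, against 9.12% of all tested genes). Of the 10, 5 had a positive log2 fold change, against 48.5% of all tested genes, and the median was 0.10. Zeb1, a repressor with a homeodomain, was at 2.15, 1.83 and 0 CPM in old 1, 2 and 3 and 16.7, 39.4, 35.8 and 26.6 CPM in young 1, 2, 3 and 4, with every old library below every young one (log2 fold change -4.48 ± 1.56, adjusted p = 0.355, edgeR, and 0.00577 with DESeq2). Hhex, which acts in early blood and lymphoid development, was at 177, 189 and 168 CPM in the old and 60.98, 156, 103 and 106 CPM in the young libraries, also without overlap (log2 fold change 0.74 ± 0.31, adjusted p = 0.499, edgeR). Cux1, a repressor often lost in myeloid disease, averaged 124 ± 26.6 CPM in the old and 177 ± 15.5 CPM in the young libraries, without overlap (adjusted p = 0.583, edgeR). Of the 10, groups thus did not overlap with old higher in 1, against 7.55% of all tested genes, and with old lower in 2, against 5.18%. The ParaHox genes Gsx1, Gsx2 and Pdx1 had no count in any library.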
